A study of Mus musculus with 2 samples.

Results

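The nuclear genes of respiratory complexes III and IV and of their assembly factors were examined in brains of *Mir125b-2* maternal knockout mice (m−/p+, mKO) and wild-type mice (m+/p+, WT). Members were taken by gene symbol among protein-coding genes: symbols starting with Uqcr, with Uqcc and a digit or with Cox and a digit, plus *Cyc1*, *Sco1*, *Sco2* and *Surf1*. This gave 42 genes with 167 transcripts, of 22025 protein-coding genes and 128603 transcripts in all. The group was selected on measured values, because *Uqcrc1* and *Cox20* differed strongly between these same libraries. The difference between the libraries is therefore a description throughout, with no test.

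RNA-Seq was performed at postnatal day 0 on 2 libraries, 1 per genotype, each made from the pooled RNA of 6 brains of C57BL/6 mice. The mKO animals lack the miR-125b-2 precursor on the chromosome inherited from a heterozygous mother in every cell, and keep the copy inherited from the C57BL/6J father. WT animals carry both copies. With 1 pool per genotype, no spread between animals or between libraries could be measured, and differences between mothers, litters or library preparations cannot be told apart from genotype. Values are FPKM, fragment counts scaled by transcript length and library size, so levels can be set side by side between genes of different length. Gene values are sums over transcripts, and log2 ratios of mKO to WT were taken after adding 0.1 FPKM to both sums, which understates the change of low genes.

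Complex III (ubiquinol-cytochrome c reductase) passes electrons from ubiquinol to cytochrome c, and complex IV (cytochrome c oxidase) passes them from cytochrome c to oxygen. Both pump protons across the inner mitochondrial membrane and so feed ATP synthesis, on which neurons depend heavily. Each complex joins a few subunits encoded in mitochondrial DNA (cytochrome b in complex III, COX1 to COX3 in complex IV) to many encoded in the nucleus, and each needs dedicated factors that insert heme, copper or iron-sulfur centres and hold the parts together during assembly.

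The summed FPKM of all transcripts was 1.74e+06 in WT and 1.75e+06 in mKO, and read counts were not used, so the depth behind single values is unknown. Of all transcripts, 59616 in WT and 60653 in mKO stood at the floor value of 1e-05 that replaces 0. The row of the deleted gene itself, *Mir125b-2* (a precursor of 71 bases on chromosome 16), was listed at the floor in both libraries, as was *Mir125b-1*, so these values do not check the genotype labels. The labels name whole brain as tissue while their protocol names hippocampus. Markers of regions outside the hippocampus (5 genes, all above the floor) summed to 57.0 FPKM in WT and 61.5 FPKM in mKO. Of these, *Tcf7l2* (23.2 and 27.4 FPKM) and *Foxp2* (25.8 and 28.0 FPKM) were higher in mKO. *Hoxb5* (4.12 and 2.63 FPKM), *Hoxc5* (0.435 and 0.277 FPKM) and *Drd1* (3.42 and 3.23 FPKM) were lower. Whether both pools held the brain regions in like shares was not tested. The hippocampal *Prox1* and *Zbtb20* summed to 47.0 and 46.8 FPKM, and 5 neuronal markers to 1670 and 1683 FPKM. Erythroid markers (3 genes) summed to 408 and 406 FPKM and the choroid plexus gene *Ttr* stood at 520 and 557 FPKM.

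The deleted locus gives rise to a pair of mature microRNAs. Their sequences are shown here, from RefSeq on GRCm38.p6, because their seeds (bases 2 to 8, in capitals) define the matches that were searched in the 3′UTRs of the genes described.
mmu-miR-125b-5p: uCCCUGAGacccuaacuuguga
mmu-miR-125b-2-3p: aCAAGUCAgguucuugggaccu
The 5p strand lies at chr16:77646279-77646300 and is identical to the one made from *Mir125b-1* at chr9:41581940-41581961, which the mKO mice keep. The 3p strand, at chr16:77646318-77646339, differs from that of *Mir125b-1*.

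The 3′UTR of the most abundant transcript was annotated for 41 of the 42 genes and was short, with a median of 189 bases against 1105 bases over 12046 tested genes. A match to the 5p seed (CTCAGGG on the sense strand) was present in 4 of the 41 genes (9.76%), against 14.5% of the 12046 tested genes. By length, 1 of the 21 members with a 3′UTR of at most 189 bases had such a match, against 0.796% of tested genes of that length, and 3 of the 20 longer ones did, against 15.9%. A match to the 3p seed (TGACTTG) was present in 0 of the 41 genes and in 13.7% of tested genes. The 3′UTRs of *Uqcrc1* (124 bases) and *Cox20* (77 bases) held no match to either seed. Other transcripts of the genes were not searched. The 4 sites are shown in windows of 30 bases with the seed match in capitals, since they are the seed matches found in the 3′UTRs searched.
*Uqcrfs1* (chr13:30540701-30540730, minus strand): acacgtggaCTCAGGGcctaggtttctgtc
*Uqcr11* (chr10:80403056-80403085, minus strand): ggtctgcaccgCTCAGGGagcttccatgtt
*Sco1* (chr11:67064331-67064360, plus strand): gtgtcttcttgCTCAGGGgggccaaattct
*Cox7a2l* (chr17:83502288-83502317, minus strand): ggccagccgtgCTCAGGGcctcgggactca
Only the site in *Uqcr11* is of the 8mer type, in which an A follows the seed match. All 4 genes had similar levels in both libraries. *Uqcrfs1*, the Rieske iron-sulfur protein of complex III, stood at 76.6 FPKM in WT and 76.2 FPKM in mKO. *Uqcr11*, a small subunit of complex III, stood at 246 and 234 FPKM, *Sco1*, a copper chaperone for COX2, at 5.49 and 5.25 FPKM, and *Cox7a2l*, which helps join complexes III and IV into supercomplexes, at 123 and 124 FPKM. A seed match is a description of letters, not evidence of binding.

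Most genes of complexes III and IV had nearly the same abundance in mKO and WT brains. A mean summed FPKM of at least 1 was reached by 37 of the 42 genes, and 31 of these 37 (83.8%) differed by less than 1.2-fold between the libraries, against 86.4% of the 12863 protein-coding genes tested in the same way. *Uqcrc1* was the 1 member above 2-fold, where 0.28% of tested genes were, and *Cox20* was the 1 member below 0.5-fold, where 0.319% were. As these genes are the reason the group was chosen, nothing is read from these counts. The median log2 ratio was 0.036 over the 37 genes, with quartiles of −0.014 and 0.14, and 0.001 over all tested genes, with quartiles of −0.093 and 0.092. The value was higher in mKO for 23 genes and lower for 14, while 50.4% of all tested genes were higher in mKO. Summed over all members, there were 4761 FPKM in WT and 4878 FPKM in mKO, a ratio of 1.02. In bulk tissue, fewer cells of a type and less RNA per cell cannot be told apart.

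**Figure D1:**
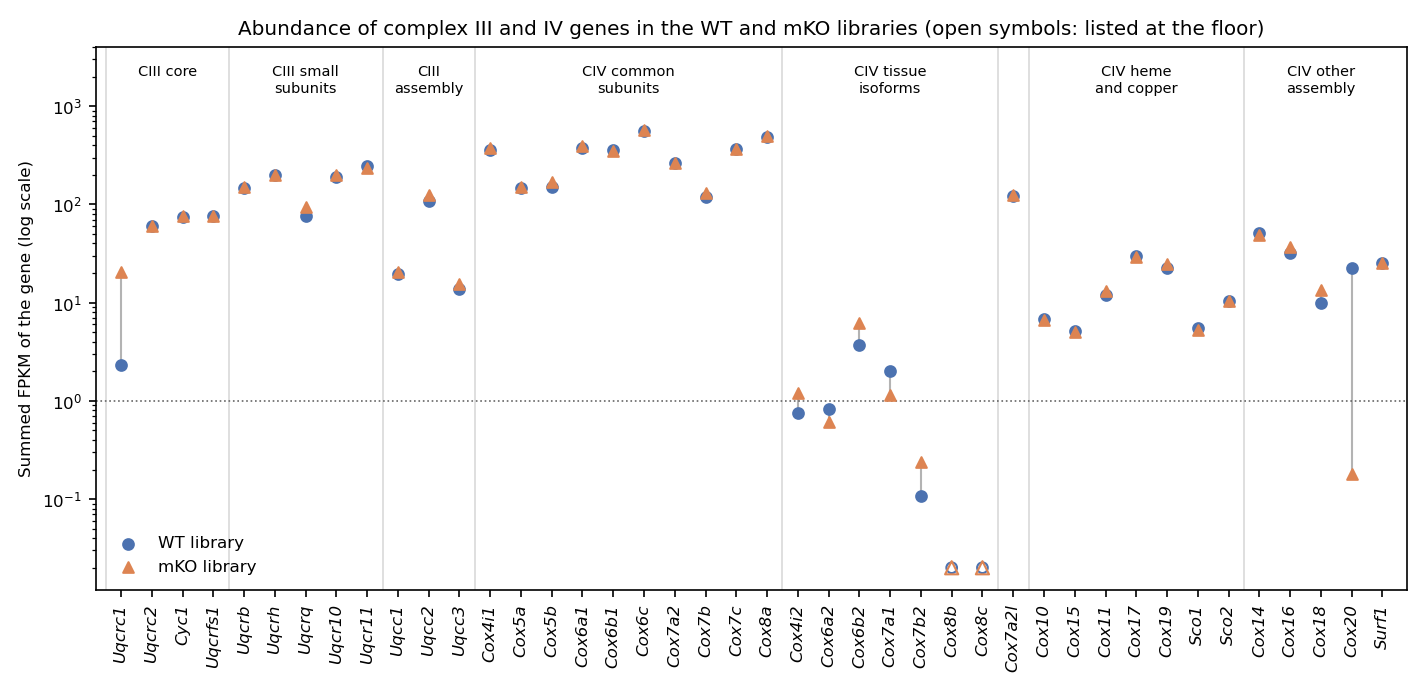
Summed FPKM (log axis) of each of the 42 genes in the WT library (circles) and the mKO library (triangles), grouped by role, with a grey line joining both values and open symbols for genes listed at the floor. The symbols nearly coincide for most genes, whereas *Uqcrc1* stood at 2.32 and 20.3 FPKM and *Cox20* at 22.6 and 0.182 FPKM; the dotted line marks the minimum of 1 FPKM.

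*Uqcrc1* encodes core protein 1, which with core protein 2 forms the large matrix-facing part of complex III. It had 2.32 FPKM in WT and 20.3 FPKM in mKO, an 8.75-fold difference and a log2 ratio of 3.08. Among 9482 protein-coding genes with a mean of at least 5 FPKM it ranked at position 2 from the top. The difference lay in 1 transcript, ENSMUST00000026743 (1653 bases, protein-coding, chr9:108936633-108949623 of GRCm38, plus strand), with 1.70 FPKM in WT and 20.1 FPKM in mKO. This transcript made up 73.4% of the gene's FPKM in WT and 99.1% in mKO. Of the other 7 transcripts, the highest was ENSMUST00000194469, at 0.443 FPKM in WT and at the floor in mKO.

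The level of *Uqcrc1* was low for a subunit of complex III in both libraries. *Uqcrc2*, which encodes core protein 2, had 60.4 FPKM in WT and 60.1 FPKM in mKO, so that it exceeded *Uqcrc1* 25.98-fold in WT and 2.95-fold in mKO. The other 8 nuclear subunit genes of complex III ranged from 60.4 to 246 FPKM in WT and from 60.1 to 234 FPKM in mKO. Thus *Uqcrc1* lay below the lowest of them in both libraries, and the mKO value was the nearer to their range.

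No 50-base stretch of ENSMUST00000026743 was shared with an annotated transcript of another gene. Within 100 kb, several neighbouring genes with low values differed the other way. *Slc26a6*, an anion exchanger gene, had 1.51 FPKM in WT, and *Celsr3*, an atypical cadherin of axon guidance, had 0.284 FPKM in WT; all transcripts of both stood at the floor in mKO. Other family members elsewhere in the genome were looked up after these values were seen. *Celsr1* stood at 2.86 FPKM in WT and 3.03 FPKM in mKO, and *Celsr2* at 16.5 and 17.2 FPKM. *Col7a1*, a collagen gene that starts 3962 bases beyond *Uqcrc1*, had 1.26 FPKM in WT and 0.434 FPKM in mKO. *Ucn2* had 0.0468 FPKM in WT and was at the floor in mKO, and *Tmem89* was at the floor in both. *Pfkfb4* (8.86 and 9.999 FPKM) and *Shisa5* (18.5 and 16.1 FPKM) had higher levels and were similar in both libraries. They lie 42154 and 88941 bases from *Uqcrc1*, and *Celsr3* lies 83663 bases from it. Whether the values of the neighbours and of *Uqcrc1* depend on each other, and whether the low WT value of *Uqcrc1* or the values at the floor are failed estimates, was not tested.

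*Cox20* encodes a chaperone that stabilises newly made COX2 and presents it for copper insertion. It had 22.6 FPKM in WT and 0.182 FPKM in mKO, a 124-fold difference and a log2 ratio of −6.33, at position 2 from the bottom among the 9482 genes. The value rested on 1 transcript, ENSMUST00000027781 (471 bases, protein-coding, chr1:178319130-178322693, plus strand), because the other, ENSMUST00000154437 with a retained intron, was at the floor in both libraries. In WT, *Cox20* was close to *Surf1* (25.1 FPKM) and *Cox19* (22.5 FPKM), which also serve the assembly of complex IV. In mKO it lay below the other 14 assembly factors among the members, of which *Cox15* was the lowest at 4.99 FPKM.

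The 3′ part of *Cox20* overlaps *Hnrnpu*, a nuclear RNA-binding protein gene on the opposite strand, by 1586 bases. *Hnrnpu* stood at 2.43 FPKM in WT and 3.77 FPKM in mKO, the lowest of 20 tested *Hnrnp* genes in both libraries, whose median was 49.96 FPKM in WT and 49.0 FPKM in mKO. The libraries were strand-specific, but the sources used here do not give whether FPKM were estimated by strand. *Desi2*, a coding gene 61828 bases upstream of *Cox20*, had 2.52 FPKM in WT and 0.0842 FPKM in mKO, the same direction as *Cox20*. *Efcab2*, 83391 bases downstream, had 3.22 and 3.89 FPKM. Of the 50-base stretches of *Cox20*, 12.6% also occur in its processed pseudogene *Cox20-ps* on chromosome 7, which had 0.291 FPKM in WT and stood at the floor in mKO. The values of overlap, neighbours and pseudogene are given beside *Cox20*; their part in its difference, and whether the low mKO value is a failed estimate, was not tested.

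**Figure D2:**
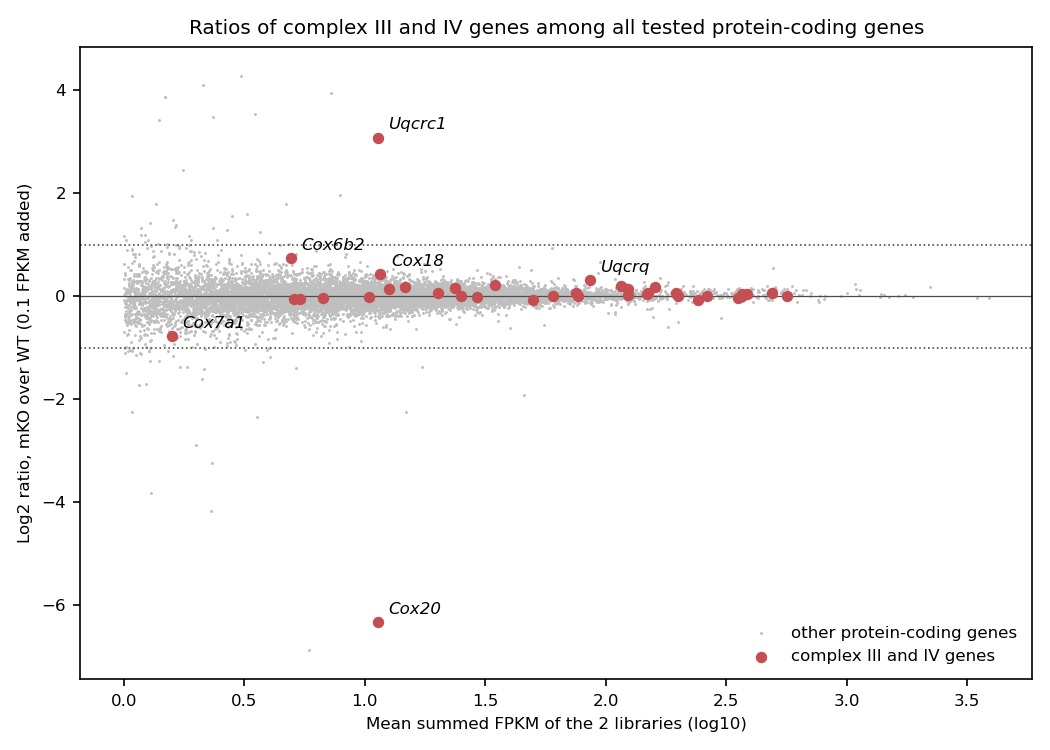
Log2 ratio of mKO to WT against the mean summed FPKM of the 2 libraries (log10) for 12863 tested protein-coding genes (grey points) and the 37 tested genes of complexes III and IV (red points). Members outside 1.2-fold are named: *Uqcrc1* (3.08), *Cox6b2* (0.73), *Cox18* (0.43), *Uqcrq* (0.31), *Cox7a1* (−0.78) and *Cox20* (−6.33); the others lie close to 0, and dotted lines mark 2-fold.

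The remaining subunits of complex III were abundant and nearly equal. *Cyc1*, the cytochrome c1 subunit that hands electrons to cytochrome c, had 74.2 FPKM in WT and 76.9 FPKM in mKO. Among the small subunits, *Uqcr11* was the highest, followed by *Uqcrh* at 198 and 199 FPKM and *Uqcr10* at 191 and 199 FPKM. *Uqcrb*, a subunit near the ubiquinone site, had 146 and 150 FPKM. *Uqcrq* was the exception among them, with 76.5 FPKM in WT and 94.8 FPKM in mKO, a 1.24-fold difference. It was carried by ENSMUST00000109021 (405 bases), with 45.4 FPKM in WT and 66.0 FPKM in mKO, whereas the longer ENSMUST00000061326 had 19.3 and 17.7 FPKM. The FPKM of the 9 subunit genes together was 1071 in WT and 1109 in mKO. Of the 3 assembly factors of complex III, which act on newly made cytochrome b, *Uqcc2* was the highest at 107 and 123 FPKM. *Uqcc1* (19.8 and 20.5 FPKM) and *Uqcc3* (13.7 and 15.5 FPKM) were several times lower, and all 3 gene sums were within 1.2-fold. The sum of *Uqcc1* lay mostly in transcripts not annotated as protein-coding, such as the processed transcript ENSMUST00000146995 (8.59 and 9.59 FPKM). Its highest protein-coding transcript in WT, ENSMUST00000109636, had 1.72 FPKM there and stood at the floor in mKO. In mKO the highest protein-coding one, ENSMUST00000109632, had 0.0059 FPKM.

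The 10 nuclear subunits of complex IV in their common isoforms had the highest median of the role groups, 358 FPKM in WT and 359 FPKM in mKO. All 10 differed by less than 1.2-fold, 8 being higher and 2 lower in mKO. *Cox6c* was the highest, at 564 FPKM in WT and 566 FPKM in mKO, followed by *Cox8a* at 481 and 500.02 FPKM. *Cox7b* was the lowest at 118 and 130 FPKM, below *Cox5a* at 146 and 152 FPKM. These are accessory subunits that surround the catalytic core. *Cox4i1*, the isoform that carries a site of regulation by ATP, had 360 and 372 FPKM, and *Cox5b* had 151 and 170 FPKM, the largest ratio of the 10 at 1.12. Together the 10 genes had 3186 FPKM in WT and 3258 FPKM in mKO, so their levels spread 4.78-fold from lowest to highest in WT and 4.34-fold in mKO.

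The tissue-specific isoforms of complex IV were low in both libraries, and 5 of the 7 did not reach a mean of 1 FPKM. Each was far below its common partner. *Cox4i2*, an isoform known from lung, stood at 0.757 FPKM in WT and 1.21 FPKM in mKO, and the heart and muscle isoform *Cox6a2* at 0.833 and 0.603 FPKM, where its partner *Cox6a1* had 379 and 390 FPKM. *Cox7a1*, also of heart and muscle, had 2.03 FPKM in WT and 1.14 FPKM in mKO (ratio 0.563), while *Cox7a2* had 263 and 261 FPKM. *Cox6b2*, known from testis, had 3.68 FPKM in WT and 6.18 FPKM in mKO (ratio 1.68), while *Cox6b1* had 356 and 348 FPKM. *Cox7b2* stood at 0.107 and 0.238 FPKM, and *Cox8b* and *Cox8c* were listed at the floor in both. The 6 muscle markers, none at the floor, summed to 3.13 FPKM in WT and 3.95 FPKM in mKO, with 3 of them higher and 3 lower in mKO. *Acta1* (2.17 and 3.05 FPKM) carried the difference, and without it the sums were 0.958 and 0.904 FPKM. Their part in the values of *Cox6a2* and *Cox7a1* was not tested. The testis markers *Prm1* and *Tnp1* were at the floor in both libraries. *Cox6b2* and *Cox7a1* are the members nearest to 2-fold after *Uqcrc1* and *Cox20*, and at such low levels the unknown depth limits what can be said of their difference.

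The assembly factors of complexes III and IV were expressed at lower levels than the subunits. The median of the 15 factors was 19.8 FPKM in WT and 15.5 FPKM in mKO, against 191 and 199 FPKM for the 19 subunits of complexes III and IV in their common isoforms. Without *Cox20*, the median of the other 14 factors was 16.7 FPKM in WT and 18.0 FPKM in mKO, so the order of the libraries rests on that gene. Of the 15 factors, 13 were within 1.2-fold, and 7 were higher and 8 lower in mKO. Of the factors that make heme a or deliver copper, the lowest were *Cox15*, which converts heme o to heme a (5.20 and 4.99 FPKM), and *Sco1*. The highest were *Cox17*, a copper chaperone of the intermembrane space (29.5 and 29.2 FPKM), and *Cox19* (22.5 and 24.9 FPKM). All 7 factors for heme a and copper were within 1.2-fold. *Cox10*, which makes heme o, had 6.80 and 6.62 FPKM, *Cox11*, which inserts copper into COX1, 12.0 and 13.1 FPKM, and *Sco2* 10.5 and 10.4 FPKM.

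The other assembly factors act on single subunits made in mitochondria. *Cox14*, which binds newly made COX1, was the highest at 51.5 FPKM in WT and 48.5 FPKM in mKO, and *Cox16*, which acts with COX2, had 32.1 and 37.2 FPKM. *Surf1*, whose loss in patients causes Leigh syndrome, had 25.06 and 25.02 FPKM. *Cox18* translocates the C-terminal tail of COX2 across the inner membrane and is, with *Cox20*, *Cox16*, *Sco1* and *Sco2*, one of the factors of that subunit. It had 9.90 FPKM in WT and 13.4 FPKM in mKO, a 1.35-fold difference. Thus, by gene sum, of the 5 factors of COX2 named here, *Cox20* was far lower in mKO and *Cox18* was higher by more than 1.2-fold. *Cox16*, *Sco1* and *Sco2* were within 1.2-fold. The *Cox18* sum includes transcripts with a retained intron or subject to nonsense-mediated decay, most of them higher in mKO. Its protein-coding transcripts went both ways: ENSMUST00000048363 had 4.22 FPKM in WT and 2.33 FPKM in mKO, and ENSMUST00000118816 had 1.82 and 4.38 FPKM.

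Single transcripts varied more than the gene sums. A mean above 0.3 FPKM was reached by 115 of the 167 transcripts, of which 16 (13.9%) were above 2-fold in mKO, where 9.42% of the transcripts of all protein-coding genes were. Below 0.5-fold were 10 transcripts (8.70%), where 8.93% of all were. The 26 transcripts belonged to 16 genes, and 4 of these genes had transcripts in both directions. Apart from *Uqcrc1* and *Cox20*, 14 genes had such a transcript, and the gene sum was within 1.2-fold in 12 of the 14. The transcript with the highest mean was above 2-fold or below 0.5-fold in 2 of 39 genes, which are *Uqcrc1* and *Cox20*. Taken by the mKO library alone, the leading transcript was in 3, *Cox18* being the third. The counts by gene and by leading transcript were not made over all protein-coding genes, so nothing particular to the members is read from them. Called transcripts were mostly minor, with a median mean of 0.953 FPKM against 4.58 FPKM for the others, and 9 of them were at the floor in 1 library, for which no fold can be given. Protein-coding transcripts held 96.0% of the group's FPKM in WT and 95.8% in mKO, and transcripts with a retained intron 1.48% in both.

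*Cox18* had 4 transcripts beyond 2-fold, the most of any member, and *Cox16* and *Cox4i1* had 3 each. For *Cox18*, the transcript with the highest mean, ENSMUST00000048363 (1333 bases), had 4.22 FPKM in WT and 2.33 FPKM in mKO, or 42.6% and 17.5% of the gene's FPKM, while ENSMUST00000118816 (1307 bases), also protein-coding, had 1.82 FPKM in WT and 4.38 FPKM in mKO, where it was the most abundant. A further 2 *Cox18* transcripts with a mean above 1 FPKM were higher in mKO: ENSMUST00000131068 with a retained intron (0.561 and 1.68 FPKM) and ENSMUST00000148480, annotated as subject to nonsense-mediated decay (0.909 and 2.23 FPKM). For *Cox16*, ENSMUST00000171237, annotated as a processed transcript, had 2.27 and 5.81 FPKM, and the most abundant ENSMUST00000110340 had 13.9 and 17.6 FPKM. The protein-coding ENSMUST00000168463 of *Cox16* had 9.77 and 4.96 FPKM, just inside 0.5-fold. FPKM of overlapping transcripts of 1 gene are estimates of how its fragments divide among them.

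**Figure D3:**
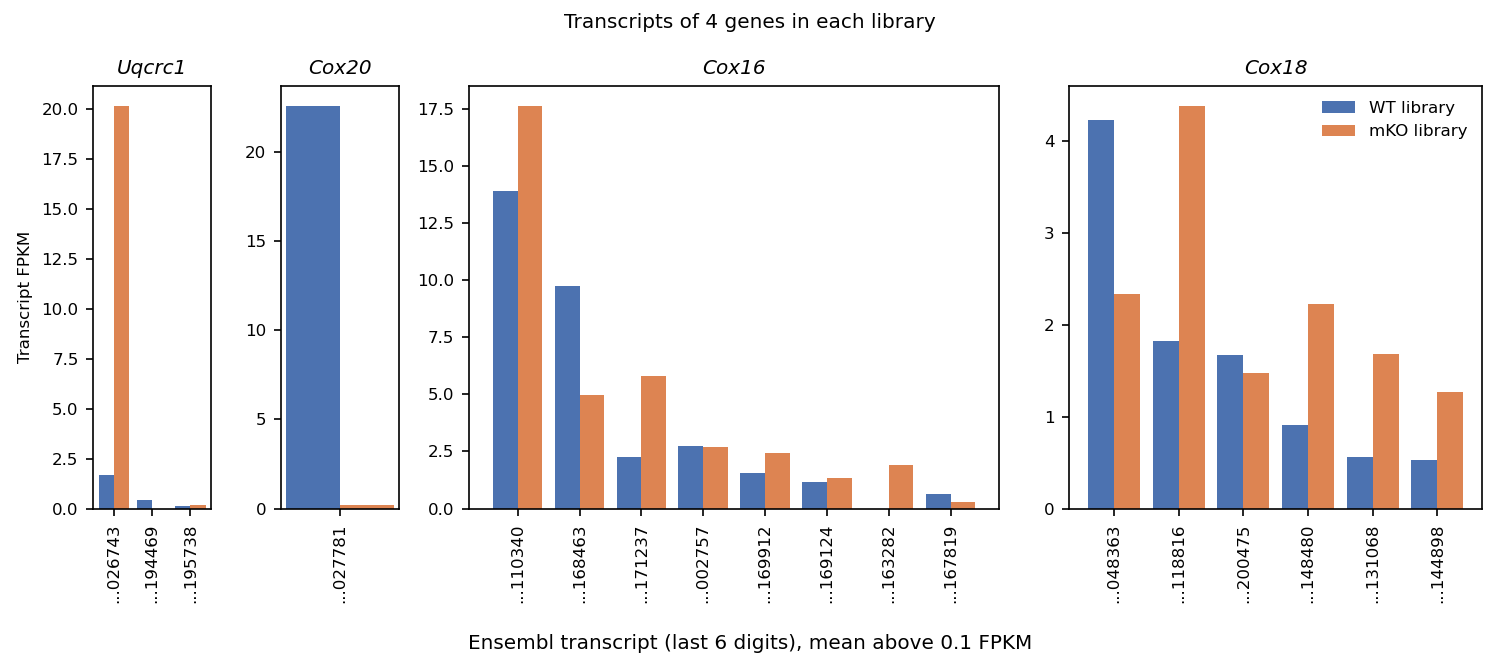
FPKM of each transcript with a mean above 0.1 FPKM of *Uqcrc1*, *Cox20*, *Cox16* and *Cox18*, in the WT library (blue bars) and the mKO library (orange bars), each panel with its own linear axis from 0. In *Uqcrc1* and *Cox20* a single transcript carries the difference (1.70 and 20.1 FPKM, and 22.6 and 0.182 FPKM), while in *Cox16* and *Cox18* bars differ in both directions.

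In the other genes the transcripts beyond 2-fold with a mean above 1 FPKM were small beside the leading one. *Cox4i1* had 342 and 359 FPKM in its leading transcript ENSMUST00000034276, whereas ENSMUST00000181586 had 4.45 FPKM in WT and stood at the floor in mKO, and ENSMUST00000180856 had 1.33 and 2.80 FPKM. For *Cox7c*, ENSMUST00000017922 had 10.01 and 3.51 FPKM beside 350.1 and 359 FPKM in ENSMUST00000131011. In *Cox7a2*, ENSMUST00000215933 had 2.74 and 0.996 FPKM and ENSMUST00000215452 had 1.93 and 3.92 FPKM, beside 258 and 256 FPKM in ENSMUST00000034881. *Surf1* differed from these in having no dominant transcript: ENSMUST00000015934 had 7.85 and 9.06 FPKM, and ENSMUST00000133513 had 1.36 and 2.89 FPKM.

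Many genes of these complexes have processed copies elsewhere in the genome, with which reads can be shared. Of the leading transcripts, 24 had no 50-base stretch in common with a transcript of another gene in GENCODE M21 and 18 had at least 1. For 11 genes, another gene with FPKM values here held at least 5% of the stretches, in 15 pairs. Of these 15 other genes, 11 had a mean of at least 1 FPKM. *Cox6a1* is not among the 11 members, because the gene that shares 12.3% of its stretches has no FPKM value here. Several processed pseudogenes in these pairs differed between the libraries more than their parent genes did. *Gm16418*, a processed pseudogene that holds 10.9% of the stretches of *Uqcr11*, had 18.9 FPKM in WT and 55.1 FPKM in mKO. *Gm12338*, which holds 29.1% of those of *Cox7c*, had 24.9 and 40.2 FPKM, and *Gm6265*, which holds 21.1% of those of *Cox6c*, had 17.4 and 6.89 FPKM. Adding the other genes of the pairs to the member changed the log2 ratio of *Uqcr11* from −0.073 to 0.13. All 10 members that were within 1.2-fold alone remained within it. For *Cox20* the ratio with its copy was −6.35. *Cox16* shares 65.8% of its stretches with *Gm20498*, a coding gene at the same place on the same strand with 15.5 and 14.3 FPKM. *Sco2* shares 73.2% with *Tymp* (0.851 and 0.565 FPKM). *Cox17* shares 52.7% with *Gm21987*, which had 0.0105 FPKM in WT and stood at the floor in mKO, and *Cox7c* shares 53.0% with other genes. How reads were divided within such pairs was not tested, so the sums of these members are uncertain.

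Promoters of nuclear respiratory genes are known for sites of the ETS family (to which the nuclear respiratory factor GABP belongs) and of NRF1. RefSeq start sites were matched for 31 of the 42 genes, with windows of 250 bases before to 50 bases after the start on GRCm38.p6, and 4 motifs were searched on both strands. The ETS motif CCGGAAG was found in 12 of the 31 genes (38.7%), in 19.4% of the 9873 tested genes that had a window, and in 9.93% of all 27025 symbols. The NRF1 motif GCGCANGCG, which can overlap its own match on the other strand, was found in 4 genes (12.9%), in 15.5% of tested genes and in 7.03% of all. CCAAT was found in 45.2% of the members and 43.2% of tested genes, and TATAAA in 9.68% and 8.45%. The genes with the ETS motif were *Cox10*, *Cox14*, *Cox15*, *Cox16*, *Cox20*, *Cox6a1*, *Cox6b1*, *Cox8a*, *Sco1*, *Surf1*, *Uqcr11* and *Uqcrh*, and those with the NRF1 motif were *Cox6a1*, *Uqcc2*, *Uqcr11* and *Uqcrc1*. Windows of 30 bases are shown for *Uqcrc1* and *Cox20*, because these genes differ most, and for 2 genes with the same motifs and similar levels in both libraries, with the motif in capitals.
*Uqcrc1*, NRF1 (chr9:108936668-108936697, plus strand): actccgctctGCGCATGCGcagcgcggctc
*Uqcc2*, NRF1 (chr17:27133920-27133949, minus strand): gcgccttagtGCGCACGCGccctctgcggt
*Cox20*, ETS on the opposite strand (chr1:178319039-178319068, plus strand): gccagggcgggCTTCCGGacagccccagga
*Uqcrh*, ETS on the opposite strand (chr4:116075062-116075091, minus strand): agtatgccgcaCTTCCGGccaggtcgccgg
The motif begins at base 31 after the RefSeq start in *Uqcrc1*, where a second, different match begins at base 7, and 103 bases before it in *Cox20*. *Uqcc2* had 107 and 123 FPKM and *Uqcrh* 198 and 199 FPKM. Any relation of the motifs to the levels was not tested. A match is a description of the sequence and not of binding.

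The other complexes of oxidative phosphorylation had a narrower range of ratios. Of 45 tested genes of complex I (symbols starting with Nduf), 44 were within 1.2-fold, with log2 ratios from −0.32 to 0.25 and a median of 0.028. This symbol rule takes in *Ndufa4*, which is also counted below among the other genes that serve complexes III and IV. All 8 genes of complex II and its assembly were within 1.2-fold, with a median of 0.038. For complex V (symbols starting with Atp5, whether or not the gene encodes a subunit) 16 of 17 were, with a median of 0.053. The one outside was *Atp5s*, with 7.51 FPKM in WT and 6.14 FPKM in mKO. No tested gene of these 3 complexes was above 2-fold or below 0.5-fold. Without *Uqcrc1* and *Cox20*, the log2 ratios of the remaining 35 genes of complexes III and IV ran from −0.78 to 0.73, and the genes at both ends were the low tissue isoforms *Cox7a1* and *Cox6b2*. As the group was chosen for its extreme members, the difference in range was not tested.

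**Figure D4:**
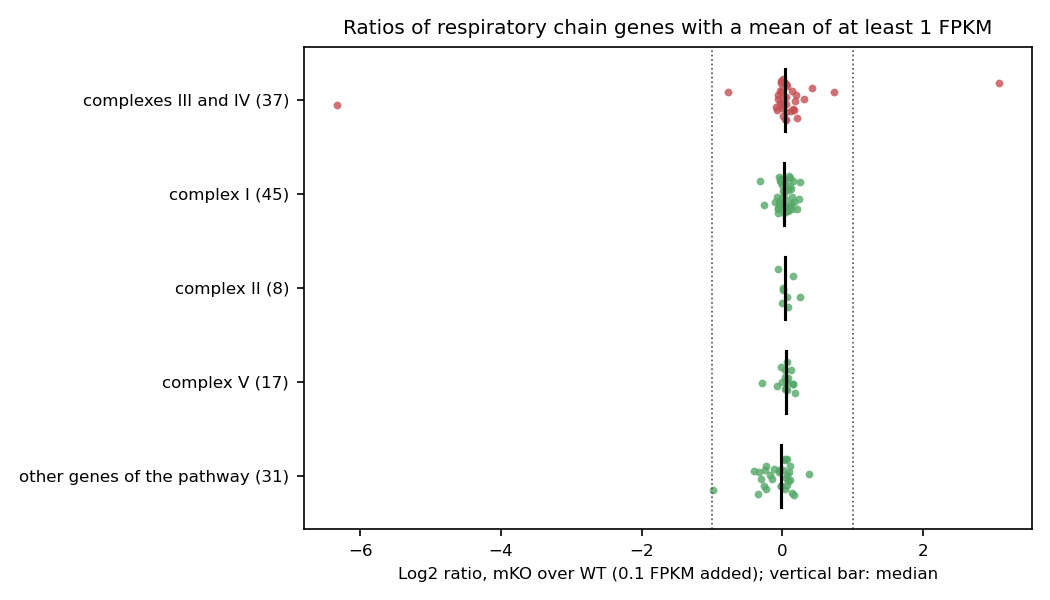
Log2 ratio of mKO to WT of each gene with a mean of at least 1 FPKM in complexes III and IV (37 genes), complex I (45), complex II (8), complex V (17) and the other genes of the pathway (31), with a vertical bar at the median and points spread vertically for visibility. All medians lie between −0.025 and 0.053, and *Cox20* (−6.33) and *Uqcrc1* (3.08) are the 2 points beyond the dotted lines at 2-fold.

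Other genes that serve complexes III and IV but fall outside the symbol rule were also measured. Of 33 such names, 31 were in the table, all with a mean of at least 1 FPKM, and 24 of them (77.4%) were within 1.2-fold, where 86.4% of all tested protein-coding genes were, with a median log2 ratio of −0.025. Outside 1.2-fold were 1 gene that was higher and 6 that were lower in mKO, and none passed 2-fold once 0.1 FPKM was added to both values. *Pet117*, an assembly factor of complex IV, differed most, with 1.39 FPKM in WT and 0.652 FPKM in mKO (log2 ratio −0.99); the ratio of these values without the addition is 0.469. The subunits encoded in mitochondrial DNA, named after their values were seen, included *mt-Co1* at 3938 FPKM in WT and 3815 FPKM in mKO and *mt-Cytb* at 1508 and 1483 FPKM. *mt-Co2* (28.0 and 21.0 FPKM) and *mt-Co3* (23.9 and 26.3 FPKM), which are transcribed from the same strand of mitochondrial DNA, were listed far below them in both libraries. *mt-Co2* was thus lower in mKO, with a log2 ratio of −0.41. The products of *Cox18* and *Cox20* act on its protein, and any relation of its RNA level to these genes was not tested. Whether the low values of *mt-Co2* and *mt-Co3* are failed estimates was not tested either.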

How the data were processed

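RNA of 6 pooled brains per genotype was sequenced as 1 library per genotype. Per the labels and methods, ribosomal RNA was depleted and strand was kept in library preparation. Reads were trimmed (Trimmomatic 0.36) and aligned (HISAT2 2.1.0, GRCm38.p5). The authors deposited Cuffdiff FPKM for each Ensembl transcript, writing 1e-05 in place of 0. For Cuffdiff, version and library normalization are not given in the sources used. The authors' ratios, p-values and q-values for 1 pool against 1 were not used.

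Transcript FPKM were summed per gene. Ratios used a pseudocount of 0.1 FPKM, with a minimum mean of 1 FPKM for genes and above 0.3 FPKM for transcripts. No test was run, since each genotype has 1 library. The calculation was checked on simulated data with set ratios and no noise. That check does not measure how reliable a ratio from 1 library per genotype is. Members and gene lists were chosen with earlier results of these data known. Named genes are those beyond 1.2-fold, the extremes of each role, isoform pairs and transcripts beyond 2-fold with a mean above 1 FPKM; others were named after their values were seen, and neighbours were taken within 100 kb. GENCODE M21 gave the type, length and 3′UTR of transcripts (99.5% matched), and RefSeq gave microRNAs and promoters. Analyses used python 3.11.15, numpy 2.4.6, pandas 2.3.3 and matplotlib 3.10.9. Alternatives changed minimum, pseudocount, scaling, transcript length and the transcripts summed.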

Additional observations from a re-analysis of the deposited data

How the results depend on the processing

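No paired analysis was possible because a genotype is represented by 1 pooled library, and for the same reason no library could be left out. Of 52 alternatives, 40 left the value within 0.1 on the log2 scale or within 1.5 times the count. The counts of genes above 2-fold (1), below 0.5-fold (1) and within 1.2-fold (30 or 31) and the median log2 ratio of the members (0.028 to 0.047) were in this range under every minimum, pseudocount, scaling and choice of transcripts tried. The log2 ratio of *Uqcrc1* was 2.68 with a pseudocount of 1 FPKM and 3.49 for its most abundant transcript alone, and that of *Cox20* was −4.32 with a pseudocount of 1 FPKM and −6.88 with 0.01 FPKM; by construction, a pseudocount acts most where 1 value is low. Counts of transcripts depended on the minimum. With FPKM above 0.3 required in WT only, 9 of 115 member transcripts were above 2-fold (7.83%) and 16 below 0.5-fold (13.9%). Of the transcripts of all protein-coding genes, 4.27% and 13.6% were. With the minimum in mKO only, there were 20 and 3 of 110 (18.2% and 2.73%, against 13.8% and 3.79% of all). With a mean above 1 FPKM there were 8 and 4 of 85 (9.41% and 4.71%, against 4.56% and 3.69% of all). With a mean above 5 FPKM there were 1 and 2 of 43 (2.33% and 4.65%, against 0.568% and 0.496% of all). These include the transcripts of *Uqcrc1* and *Cox20*, for which the group was chosen. Without transcripts at the floor in either library, there were 12 and 5 of 106 (11.3% and 4.72%, against 7.63% and 6.95% of all). Thus, in the members as in all transcripts, the direction of the majority follows the library that carries the minimum. Depth is unknown, so values near 0.3 FPKM have an unknown counting error, and no statement about *Mir125b-2* knockout mice in general follows from 1 pool per genotype.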

Other observations

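Large differences were also counted over all protein-coding genes, at a level of at least 10 FPKM in a library and a cut of 8-fold. As *Uqcrc1* and *Cox20* are the reason the group was chosen, nothing is read from this count. Of 7038 protein-coding genes with at least 10 FPKM in a library, 2 were more than 8-fold higher in mKO, *Uqcrc1* and *Coro1b*, an actin-binding coronin gene with 0.795 FPKM in WT and 13.7 FPKM in mKO. A further 2 were more than 8-fold lower, *Cox20* and *Gm9805*, which had 11.7 FPKM in WT and stood at the floor in mKO. Genes below 10 FPKM in both libraries were not counted, among them *Erdr1*, which had the highest log2 ratio of all tested protein-coding genes (4.28).

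Some genes that most cells use were listed at low values in both libraries. *Gapdh*, a glycolytic enzyme often used as a reference, had 14.8 FPKM in WT and 9.71 FPKM in mKO, whereas *Actb* had 1619 and 1629 FPKM and *Pgk1*, another glycolytic enzyme, 77.8 and 76.5 FPKM. *Sdha* of complex II, also used as a reference, had 59.3 and 59.9 FPKM. These genes were named after their values were seen, and whether low values such as that of *Gapdh* are failed estimates was not tested.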
